A study of Mus musculus with 48 samples.

Results

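Transcripts of 7 Toll-like receptors (Tlr1, Tlr2, Tlr3, Tlr4, Tlr5, Tlr6 and Tlr9), of 2 proteins that present lipopolysaccharide to Tlr4 (Cd14 and Ly96) and of the adaptor Myd88 were followed in mouse lung. These 10 genes were chosen by name, each as 1 row of a table of 47561 genes, and all 10 rows were found. Toll-like receptors are membrane receptors that bind conserved microbial molecules, and some also respond to molecules released by damaged cells. Tlr1, Tlr2, Tlr4, Tlr5 and Tlr6 act at the cell surface, whereas Tlr3 and Tlr9 bind nucleic acids in endosomes. Most of them signal through Myd88 to NF-kappaB and to the transcription of cytokines and chemokines, and in the lung they are known from alveolar macrophages, neutrophils and epithelium.

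RNA of lung was sequenced from 48 adult mice, with 3 mice in each of 16 groups formed by strain, sex, injection and air. The strains, C3H/HeN (C3H) and C57Bl/6 (C57B), are inbred, and C3H/HeN is known as the C3H substrain that responds to lipopolysaccharide. Males and females are written as C3HM, C3HF, C57BM and C57BF. Each mouse received 1 intraperitoneal injection, either saline or aurothioglucose (ATG) at 25 mg/kg, and ATG is a gold drug known to block thioredoxin reductase. The injection was followed by 96 h in room air or in hyperoxia (over 95% oxygen), so the control groups of every comparison with ATG carried an injection too. The labels spell the first strain C3H/hen, the text on the design gives the J substrain of C57B whereas the methods give the N substrain, and the same design text gives ATG to all mice, so the saline groups rest on the sample labels. Each mouse had its own number and no mouse was shared between groups.

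Levels are given as FPKM (fragments scaled to transcript length and to the mapped fragments of the library), in which values of different genes can be compared because gene length is divided out. Differences were tested with limma on log2(FPKM + 1) across all genes that reached 1 FPKM in 3 or more mice of the comparison. They are given on the log2(FPKM + 1) scale with a standard error (SE) and a p-value adjusted by the Benjamini-Hochberg method over all genes tested, with a threshold of 0.05. On this scale the change of a gene near or under 1 FPKM is understated. Counts of members with an unadjusted p under 0.05 rest on a looser threshold. They cannot be set against the shares of all genes, which rest on the adjusted p.

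Summed FPKM was between 510933 and 748290 per mouse, and read depth is unknown. Scgb1a1, a secretory transcript of club cells, made up 10.4% to 30.2% of that sum in room air and 1.20% to 7.17% in hyperoxia. Lung markers such as Sftpc and Ager were present in every saline mouse. Every gene on chromosome X, Y or M, 4216 in all, had a value of 0 throughout, which removed Tlr7, Tlr8 and Tlr13 from any description and left sex to the labels. A pair of libraries stood apart from their groups. Mouse 19 (C57BM) and mouse 33 (C3HF), both saline in hyperoxia, had summed FPKM of 6 neutrophil markers of 4863 and 6271, against 161 to 281 in the other mice of C57BM and 180 to 1477 in those of C3HF. Mouse 2 (C3HM, saline in room air) bore on the comparisons over all genes, since the number of genes called for sex in room air was 104 with it and 3640 without it. Member results of comparisons over both strains and sexes that rest on these mice are given with and without them. Effects within a strain or a sex, and those of the pathway, target and marker genes, are given with all mice.

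In saline mice in room air, Cd14 and Myd88 were the most abundant of the 10 transcripts and Tlr9, Tlr1 and Tlr6 the least. Cd14, a co-receptor that hands lipopolysaccharide to Tlr4, ranged from 12.2 to 42.1 FPKM over the 12 mice, with a median of 29.8. Myd88 ranged from 17.2 to 30.2 FPKM with a median of 20.8. The ranges of Cd14 and Myd88 overlapped, and the lowest Myd88 value lay above the highest of Tlr2, the next in order. Tlr2, Tlr3, Tlr4 and Ly96 followed with medians of 8.60, 6.20, 5.49 and 4.91 FPKM and overlapping ranges. Tlr5, the receptor for flagellin, had a median of 2.50 FPKM. Tlr6 had a median of 1.05 FPKM, Tlr1 of 0.915 FPKM and Tlr9 of 0.778 FPKM, and each of these ranges overlapped the next. The order of these genes differed by strain. Medians in C3H were 1.29 FPKM for Tlr6, 0.668 FPKM for Tlr9 and 0.0906 FPKM for Tlr1. In C57B they were 1.64 FPKM for Tlr1, 1.08 FPKM for Tlr9 and 0.705 FPKM for Tlr6. In hyperoxia, Cd14 and Myd88 again led with medians of 69.3 and 39.8 FPKM, followed by Tlr4 (12.0 FPKM) and Tlr2 (11.8 FPKM), while Tlr3, at 3.75 FPKM, came after Ly96 at 6.96 FPKM. Neighbours in that order overlapped other than Myd88 and Tlr4.

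**Figure D1:**
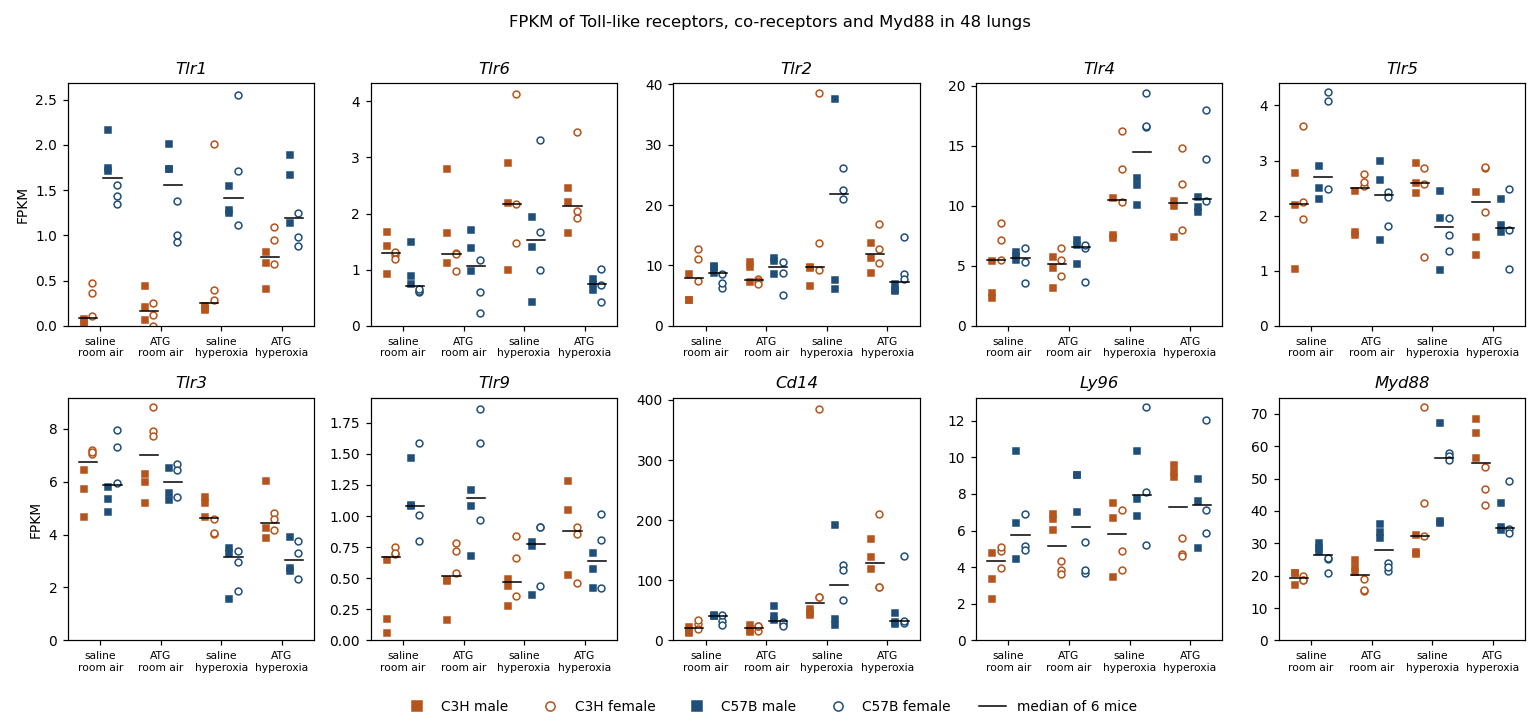
FPKM of the 10 transcripts in each of 48 mice (linear vertical axis from 0) by injection and air, with C3H in brown, C57B in blue, males as filled squares, females as open circles, and a line at the median of 6 mice. Tlr1 lay at or under 0.48 FPKM in all saline C3H mice in room air and at or above 1.35 FPKM in those of C57B, and Cd14 reached 385 FPKM in mouse 33.

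Promoter sequences are shown for Tlr1, which differed by strain, and for Tlr2, Tlr3 and Myd88, which differed by air, so that members moving in opposite directions can be compared. RefSeq start sites of the GRCm38.p6 build, which is the genome of the C57BL/6J strain, were found for 7 of the 10 genes, and each window runs from 250 bases before to 50 bases after the start on the strand of the gene. Windows of Tlr4, Cd14 and Ly96 were not used here. Matches to 4 motifs were searched on both strands: the NF-kappaB motif, the interferon-stimulated response element (GAAA, any 2 bases, GAAA), the PU.1 motif (GAGGAA followed by GT) and the AP-1 motif (TGANTCA). Matches are in capitals.
Tlr1, chr5:64933509-64933808, minus strand: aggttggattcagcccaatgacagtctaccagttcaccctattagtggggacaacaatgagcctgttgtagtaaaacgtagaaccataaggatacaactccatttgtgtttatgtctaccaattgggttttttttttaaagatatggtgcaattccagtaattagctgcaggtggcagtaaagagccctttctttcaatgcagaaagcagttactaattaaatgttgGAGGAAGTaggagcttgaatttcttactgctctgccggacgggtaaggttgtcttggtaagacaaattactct
Tlr2, chr3:83841559-83841858, minus strand: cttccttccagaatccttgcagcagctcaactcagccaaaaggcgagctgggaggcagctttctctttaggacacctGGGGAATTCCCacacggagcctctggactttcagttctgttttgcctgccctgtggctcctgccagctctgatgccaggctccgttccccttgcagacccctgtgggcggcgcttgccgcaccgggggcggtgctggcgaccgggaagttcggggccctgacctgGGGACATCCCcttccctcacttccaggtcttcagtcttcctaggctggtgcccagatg
Tlr3, chr8:45410331-45410630, minus strand: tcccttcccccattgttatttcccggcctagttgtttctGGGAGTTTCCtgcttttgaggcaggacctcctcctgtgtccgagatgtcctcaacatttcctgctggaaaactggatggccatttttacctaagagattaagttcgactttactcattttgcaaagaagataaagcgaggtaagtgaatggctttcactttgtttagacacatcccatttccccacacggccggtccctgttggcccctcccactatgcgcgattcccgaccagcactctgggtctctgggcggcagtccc
Myd88, chr9:119339969-119340268, minus strand: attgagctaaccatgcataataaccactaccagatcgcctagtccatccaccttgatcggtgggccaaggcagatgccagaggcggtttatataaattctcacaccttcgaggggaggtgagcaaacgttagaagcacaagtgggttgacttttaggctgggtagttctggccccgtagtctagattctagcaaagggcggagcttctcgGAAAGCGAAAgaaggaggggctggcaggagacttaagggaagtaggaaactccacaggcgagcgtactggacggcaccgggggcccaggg

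The NF-kappaB motif was matched in the windows of Tlr2 and Tlr3, and in 8.46% of all 32851 windows. The Tlr2 window held 3 matches, of which the first 2, starting 173 and 172 bases before the start, overlap each other and the last begins 8 bases before it. The single match of Tlr3 began 211 bases before the start. The window of Tlr1 held the PU.1 motif 23 bases before the start, as did 3.20% of windows, and that of Myd88 held the interferon-stimulated response element 40 bases before the start, as did 3.44% of windows. The AP-1 motif was in none of these 4 windows and in 7.81% of all windows. In the other windows, that of Tlr9 held the PU.1 and AP-1 motifs, 1 of 2 windows of Tlr6 held 2 matches to the interferon-stimulated response element, and those of Tlr5 and of the other start sites of Tlr1 and Tlr6 held none. These are matches of letters and were not tested for binding.

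The comparison of strains in room air, the baseline of the study, asked whether C3H and C57B lungs differ without oxygen stress. Tlr1, Tlr9, Cd14 and Myd88 were lower in C3H than C57B, and none of the 10 was called higher. Thus 4 of 10 members were called, against 11.8% of the 15546 genes tested and 7.87% called lower. The median difference of the 10 was -0.37 and that of all genes was -0.10. Tlr1 and Tlr9 passed the filter on low values through C57B alone, as no C3H mouse reached 1 FPKM. Their count is therefore not support for a difference of the group of genes. Their p-values, also those of fits without a mouse, are given as a description. Reads of both strains were mapped to mm10, the genome build of a C57B strain. Whether C3H reads that differ from that genome were lost, which would lower C3H values, was not tested. The same limit holds for the other comparisons of strains.

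Tlr1, which pairs with Tlr2 to bind triacylated lipopeptides, lies at chr5:64924679-64933563 on the minus strand. In room air with saline, the C3H mice had a lowest value of 0, a median of 0.0906 and a highest value of 0.479 FPKM. The C57B mice had 1.35, 1.64 and 2.17 FPKM. The ranges did not overlap, and the difference was -1.18 (SE 0.14, adjusted p = 0.000135). The adjusted p was at most 0.000699 when any mouse was left out. In the mice given ATG in room air, which did not enter this test, the ranges did not overlap either, with 0 to 0.439 FPKM in C3H and 0.927 to 2.01 FPKM in C57B.

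Tlr6, which pairs with Tlr2 to bind diacylated lipopeptides, is the neighbour of Tlr1 at chr5:64952031-64960097 on the same strand. It ranged from 0.918 to 1.67 FPKM in C3H and from 0.611 to 1.49 FPKM in C57B, and the difference of 0.33 (SE 0.14, adjusted p = 0.167) did not pass the threshold. Of the 30-base stretches of Tlr1 transcripts, 20.3% also occurred in transcripts of other genes, foremost Tlr6, and 16.9% of those of Tlr6 did, foremost in Tlr1. How reads with several matches were divided is not given in the sources used here. The sum of both genes depends less on that division. With saline in room air it was 0.991 to 1.79 FPKM in C3H and 2.01 to 3.20 FPKM in C57B, without overlap. With ATG in room air the sum overlapped, at 1.10 to 3.24 FPKM in C3H and 1.15 to 3.45 FPKM in C57B. The strains also overlapped in hyperoxia with either injection.

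Cd14 ranged from 12.2 to 34.1 FPKM in C3H with a median of 20.7, and from 25.0 to 42.1 FPKM in C57B with a median of 40.8. The ranges overlapped through C3HF, while the 3 C3HM values of 12.2, 14.5 and 22.4 FPKM lay under the 3 C57BM values of 40.4, 41.2 and 42.1 FPKM. The difference was -0.80 (SE 0.18, adjusted p = 0.0122), and it was no longer called in a fit of all 48 mice (adjusted p = 0.148). Myd88, at chr9:119335934-119341411 on the minus strand, ranged from 17.2 to 20.9 FPKM in C3H and from 20.7 to 30.2 FPKM in C57B. A single C57B mouse, 37, lay within the C3H range, and the difference was -0.42 (SE 0.09, adjusted p = 0.0104). The Myd88 locus overlaps Acaa1a on the other strand and Slc22a14 on the same strand, and since use of strand in counting was not stated, reads of these genes could not be told apart there.

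Tlr9, the receptor for unmethylated CpG DNA at chr9:106222598-106226883, ranged from 0.0611 to 0.754 FPKM in C3H and from 0.802 to 1.59 FPKM in C57B. These low values did not overlap, and the difference was -0.55 (SE 0.16, adjusted p = 0.0469). In the mice given ATG in room air, which did not enter this test, the ranges overlapped. They were 0.162 to 0.781 FPKM in C3H and 0.680 to 1.86 FPKM in C57B. The call was lost with a pseudocount of 0.1 (adjusted p = 0.0599), with quantile normalization (adjusted p = 0.196) and in 11 of 12 fits without a mouse. Ly96, the secreted partner of Tlr4 also called MD-2, was at 2.29 to 5.12 FPKM in C3H and 4.47 to 10.4 FPKM in C57B, with a difference of -0.53 (SE 0.19) that did not pass the threshold (adjusted p = 0.0996). Tlr2, Tlr3, Tlr4 and Tlr5 had overlapping ranges and differences of -0.13, 0.03, -0.13 and -0.33, none of which passed.

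Markers of leukocytes moved with strain in the same mice. All 4 B cell markers, 3 of 4 T cell markers and 5 of 6 neutrophil markers were lower in C3H, with summed B cell markers of 19.0 to 60.3 FPKM in C3H and 70.5 to 100 FPKM in C57B. Summed neutrophil markers were 135 to 312 FPKM in C3H and 181 to 775 FPKM in C57B, and among neutrophil markers Ly6g, listed at 0 in 5 of 24 saline mice, was not called. Of 5 monocyte markers, 3 were lower and Ly6c2 was higher in C3H. Summed alveolar macrophage markers were 192 to 266 FPKM in C3HM and 605 to 667 FPKM in C57BM, without overlap. In females they overlapped, at 234 to 384 FPKM in C3HF and 203 to 382 FPKM in C57BF. The part of these cells in the differences of Tlr1, Tlr9, Cd14 and Myd88 was not tested, and in RNA of lung tissue fewer cells of a type and less RNA per cell cannot be told apart.

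No member was called for sex in room air, where 0.669% of genes were called by limma, and 1 had an unadjusted p under 0.05. That was Tlr3, the receptor for double-stranded RNA, which was at 4.65 to 6.45 FPKM in males and 5.95 to 7.97 FPKM in females, with a difference (male minus female) of -0.33 (SE 0.11, adjusted p = 0.132). None was called for the interaction of strain and sex either, where 0% of genes were called. An unadjusted p under 0.05 was reached by 3 members, a looser threshold that cannot be set against that 0%. Tlr2 was at 4.27, 8.53 and 4.28 FPKM in C3HM, of which the middle value is mouse 2, and at 7.50 to 12.8 FPKM in C3HF. In C57B it was at 8.69 to 9.93 FPKM in males and 6.35 to 8.67 FPKM in females, and in C3H mouse 2 lay above the lowest female, so the sexes overlapped there. The interaction was -1.13 for Tlr2 (SE 0.35, adjusted p = 0.207), -1.07 for Tlr4 (SE 0.37, adjusted p = 0.227) and -1.05 for Cd14 (SE 0.36, adjusted p = 0.226). All 3 passed the threshold when mouse 2 was left out, which left mice 1 and 3 in C3HM. The adjusted p was then 0.00728 for Tlr2, 0.0126 for Tlr4 and 0.0221 for Cd14. For sex it was 0.0277 for Tlr3 and 0.0334 for Tlr4. The mice given ATG in room air did not enter this test. Among them Tlr2 was at 7.19 to 10.6 FPKM in C3HM and 7.01 to 7.84 FPKM in C3HF. It was at 8.61 to 11.3 FPKM in C57BM and 5.16 to 10.7 FPKM in C57BF. In C3H given ATG the sexes overlapped for Tlr4 and Cd14 too. Over all genes the interaction was called for 0 with mouse 2 and for 2741 without it.

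Hyperoxia was compared with room air in the 24 saline mice, with the effect averaged over strains and sexes. Tlr4, Cd14, Myd88, Tlr2, Tlr6 and Ly96 rose and Tlr3 fell, while Tlr1, Tlr5 and Tlr9 did not pass the test. These 7 of 10 members stand against 60.1% of the 16321 genes tested, a share near that of all genes. By direction, 6 of 10 rose and 1 fell, against 31.8% and 28.3% of all genes. The median of the 10 differences was 0.41, and that of all genes was 0.01.

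Cd14 rose from 12.2 to 42.1 FPKM in room air (median 29.8) to 25.2 to 385 FPKM in hyperoxia (median 69.3). Mice 33 and 19 had the highest values, 385 and 191 FPKM, and the other mice of C57BM, at 25.2 and 36.0 FPKM, lay under all 3 C57BM mice in room air. The difference was 1.44 (SE 0.29, adjusted p = 0.000278), and it was 1.02 without mice 19 and 33 (adjusted p = 3.85e-06). Ly96, at chr1:16688051-16709611, was at 2.29 to 10.4 FPKM in room air and 3.46 to 12.7 FPKM in hyperoxia. Its ranges overlapped almost throughout, the difference was 0.37 (SE 0.16, adjusted p = 0.0499), and the call was lost in 17 of 24 fits without a mouse and without mice 19 and 33 together (adjusted p = 0.101).

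Tlr4, the receptor for lipopolysaccharide at chr4:66827584-66930284, rose from 2.32 to 8.60 FPKM (median 5.49) to 7.28 to 19.4 FPKM (median 12.0). Of the 12 exposed mice, 10 lay above every mouse in room air, and mice 7 and 9 of C3HM, at 7.28 and 7.58 FPKM, lay within its range. The difference was 1.10 (SE 0.12, adjusted p = 9.06e-08) and 1.05 without mice 19 and 33. Myd88 rose from 17.2 to 30.2 FPKM (median 20.8) to 26.8 to 72.2 FPKM (median 39.8), with a difference of 0.91 (SE 0.11, adjusted p = 8.09e-07) and 0.76 without mice 19 and 33. Within each of the 4 groups of strain and sex, every exposed mouse had more Myd88 than every mouse in room air.

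Tlr2, at chr3:83836272-83841767, rose in part of the mice. C57BF rose from 6.35 to 8.67 FPKM to 21.1 to 26.1 FPKM without overlap, whereas 2 of 3 mice of C57BM, at 6.15 and 7.59 FPKM, lay under the room air range of 8.69 to 9.93 FPKM and mouse 19 was at 37.6 FPKM. In C3HM the exposed mice had 6.56 to 9.77 FPKM and in C3HF they had 9.26, 13.8 and, in mouse 33, 38.5 FPKM. The difference was 0.79 (SE 0.24, adjusted p = 0.00773). Without mice 19 and 33 it was 0.46 (adjusted p = 0.00354). Tlr6 was at 0.611 to 1.67 FPKM in room air and 0.430 to 4.13 FPKM in hyperoxia, and its difference of 0.46 (SE 0.16, adjusted p = 0.0163) was no longer called without these mice (0.33, adjusted p = 0.0642).

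Tlr3, at chr8:45395665-45411080 on the minus strand, was the member that fell. It was at 4.65 to 7.97 FPKM in room air (median 6.20) and 1.55 to 5.40 FPKM in hyperoxia (median 3.75), with a difference of -0.67 (SE 0.10, adjusted p = 6.67e-06) and -0.59 without mice 19 and 33. All 6 exposed C57B mice, at 1.55 to 3.48 FPKM, lay under all room air mice, while the C3HM ranges of 4.65 to 6.45 and 4.66 to 5.40 FPKM overlapped. The locus overlaps the antisense gene Gm45542, whose reads could not be told apart without strand. Tlr5, at chr1:182954788-182976044, had a difference of -0.25 (SE 0.13, adjusted p = 0.106) that was called under median ratio scaling (-0.29, adjusted p = 0.0493), where Ly96 was not (adjusted p = 0.0886). Tlr9 had a difference of -0.17 (SE 0.10, adjusted p = 0.159) and Tlr1 of 0.12 (SE 0.12, adjusted p = 0.405).

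The strains were then compared for their change in hyperoxia. In C3H, 4 of 10 members were called (Tlr3, Tlr4, Cd14 and Myd88), against 37.8% of all genes, and in C57B, 7 of 10 (these 4 with Tlr2, Tlr5 and Tlr9), against 55.5%. Among these mice Tlr9 reached 1 FPKM in 5 C57B mice in room air alone, so it passed the filter through the group in which it was high and its call is not support for a fall. Tlr5 was at 2.31 to 4.24 FPKM in C57B in room air and 1.02 to 2.45 FPKM in hyperoxia, a difference of -0.58 (SE 0.18, adjusted p = 0.0119), and its difference in C3H was 0.08 (SE 0.18, adjusted p = 0.774). Tlr3 fell by 0.95 in C57B and by 0.38 in C3H. Cd14 rose by 1.86 (SE 0.41) in C3H and by 1.02 (SE 0.41) in C57B.

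**Figure D2:**
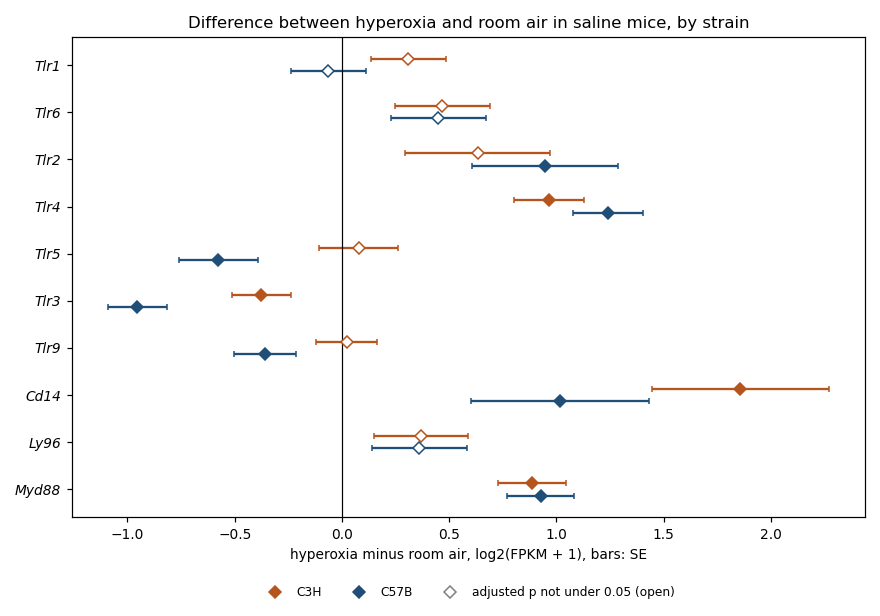
Difference between hyperoxia and room air in saline mice (horizontal axis, log2(FPKM + 1), bars are SE) for each transcript in C3H and in C57B, 12 mice each, with filled symbols for an adjusted p under 0.05. Tlr4, Cd14 and Myd88 lay above 0 and Tlr3 under 0 in both strains, and Tlr5 was at 0.08 in C3H and -0.58 in C57B.

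The test of the difference itself called none of the 10 members, against 11.5% of all genes by limma, and 2 members had an unadjusted p under 0.05. The interaction (C3H minus C57B) was 0.58 for Tlr3 (SE 0.19, adjusted p = 0.0573) and 0.66 for Tlr5 (SE 0.26, adjusted p = 0.105), and the median of all genes was 0.15. Leaving out mouse 2 brought 2 members past the threshold, leaving out mouse 20, 21, 33 or 43 brought 1, and without mice 19 and 33 together Cd14 passed with 0.88 (adjusted p = 0.0407).

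By sex, 3 of 10 members were called in males (Tlr3, Tlr4 and Myd88; 45.1% of all genes) and 7 of 10 in females (Tlr2, Tlr3, Tlr4, Tlr5, Tlr6, Cd14 and Myd88; 50.3% of all genes). Myd88 rose by 1.23 (SE 0.16) in females and by 0.58 (SE 0.16) in males. The difference between the sexes (male minus female) was called for none of the 10, against 0.0368% of all genes by limma, with 2 members at an unadjusted p under 0.05. For Myd88 it was -0.66 (SE 0.22, adjusted p = 0.177). Mouse 19 bore on this result: without it Tlr3 (adjusted p = 0.0416) and Myd88 (adjusted p = 0.0295) passed, and without mice 19 and 33 together Myd88 (-0.64, adjusted p = 0.0141) and Cd14 (-0.98, adjusted p = 0.0492) passed. Exposed Myd88 was at 55.9 to 57.9 FPKM in C57BF and at 36.3, 36.9 and, in mouse 19, 67.3 FPKM in C57BM.

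Strains within hyperoxia were compared in the 12 exposed saline mice, where 9 of 10 members passed the filter and Tlr9, at 0.277 to 0.911 FPKM, did not. Of these, 3 were called, against 28.2% of the 15046 genes tested. Tlr1 passed the filter through the 6 C57B mice and mouse 33, so its count and its p-value are given as a description. It was lower in C3H, at 0.176 to 0.393 FPKM in 5 mice and 2.01 FPKM in mouse 33, against 1.11 to 2.56 FPKM in C57B. The difference was -0.81 (SE 0.22, adjusted p = 0.0183) and -1.02 without mice 19 and 33. Tlr3 was higher in C3H without overlap, at 4.03 to 5.40 FPKM against 1.55 to 3.48 FPKM, with a difference of 0.61 (SE 0.16, adjusted p = 0.0168). Tlr4 was at 7.28 to 16.2 FPKM in C3H and 10.1 to 19.4 FPKM in C57B, with a difference of -0.40 (SE 0.13, adjusted p = 0.0375) that was lost in 9 of 12 fits without a mouse. Myd88 was at 26.8 to 72.2 FPKM in C3H and 36.3 to 67.3 FPKM in C57B, with a difference of -0.46 (SE 0.20, adjusted p = 0.104), and was called without mice 19 and 33 (-0.47, adjusted p = 0.00422). Cd14, which differed by strain in room air, had a difference of 0.04 (SE 0.52, adjusted p = 0.964). In the same mice, summed alveolar macrophage markers were 271 to 700 FPKM in C3H and 755 to 1797 FPKM in C57B, and summed club cell markers were 26706 to 41082 FPKM in C3H and 6790 to 17170 FPKM in C57B, both without overlap. Of the 6 neutrophil markers 0 were called by limma, with 0 at an unadjusted p under 0.05, and the part of these cells in the differences of Tlr1, Tlr3 and Tlr4 was not tested.

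**Figure D3:**
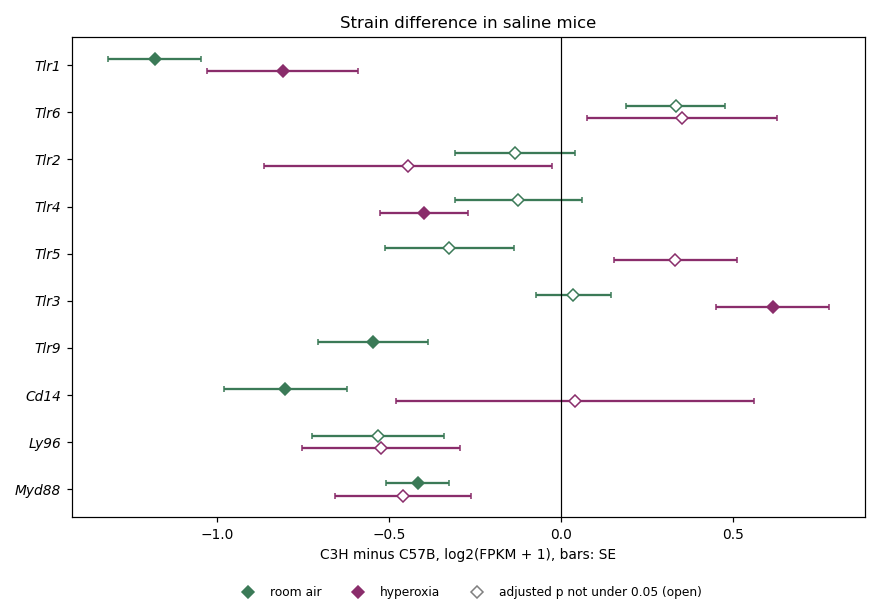
Difference between C3H and C57B in saline mice (horizontal axis, log2(FPKM + 1), bars are SE) in room air and in hyperoxia, 12 mice each, with filled symbols for an adjusted p under 0.05. Tlr1 lay at -1.18 and -0.81, and Tlr3 lay at 0.03 in room air and 0.61 in hyperoxia. Tlr9 was under the filter in hyperoxia and is not drawn there.

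Markers of neutrophils and macrophages moved with the members that rose. All 6 neutrophil markers rose in hyperoxia, with a sum of 135 to 775 FPKM in room air and 161 to 6271 FPKM in hyperoxia, and 4 of 6 alveolar macrophage markers rose while Ear1 and Ear2 fell. All 4 B cell and all 4 T cell markers, both club cell markers, 4 of 5 alveolar type 2 markers and 2 of 3 alveolar type 1 markers fell. Summed alveolar type 2 markers were 25381 to 48867 FPKM in room air and 5697 to 21494 FPKM in hyperoxia, without overlap. Over the 24 saline mice, the Pearson r of log2 values with summed neutrophil markers was 0.87 for Tlr2, 0.86 for Myd88, 0.82 for Cd14 and 0.66 for Tlr4, and that of Tlr3 was -0.66. Without mice 19 and 33 these were 0.79, 0.79, 0.71, 0.61 and -0.60. Within the 12 exposed mice they were 0.95 for Tlr2, 0.95 for Myd88, 0.84 for Cd14 and 0.83 for Tlr4, and within the 12 mice in room air 0.29, 0.79, 0.61 and 0.23. For Tlr3 and summed club cell markers r was 0.86 in the exposed mice and -0.25 in room air. Correlations with the monocyte and alveolar macrophage lists are not given here, so no link to neutrophils alone can be read from these values. Summed monocyte markers were 691 FPKM in mouse 33, against 383 and 517 in the other exposed saline C3HF mice. In mouse 19 they were 415 FPKM, against 161 and 139 in those of C57BM. Mouse 19 also had summed alveolar macrophage markers of 1498 FPKM, against 755 and 876. The correlations describe mice that share strain, sex and air, and the part of these cells in the changes of the members was not tested.

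**Figure D4:**
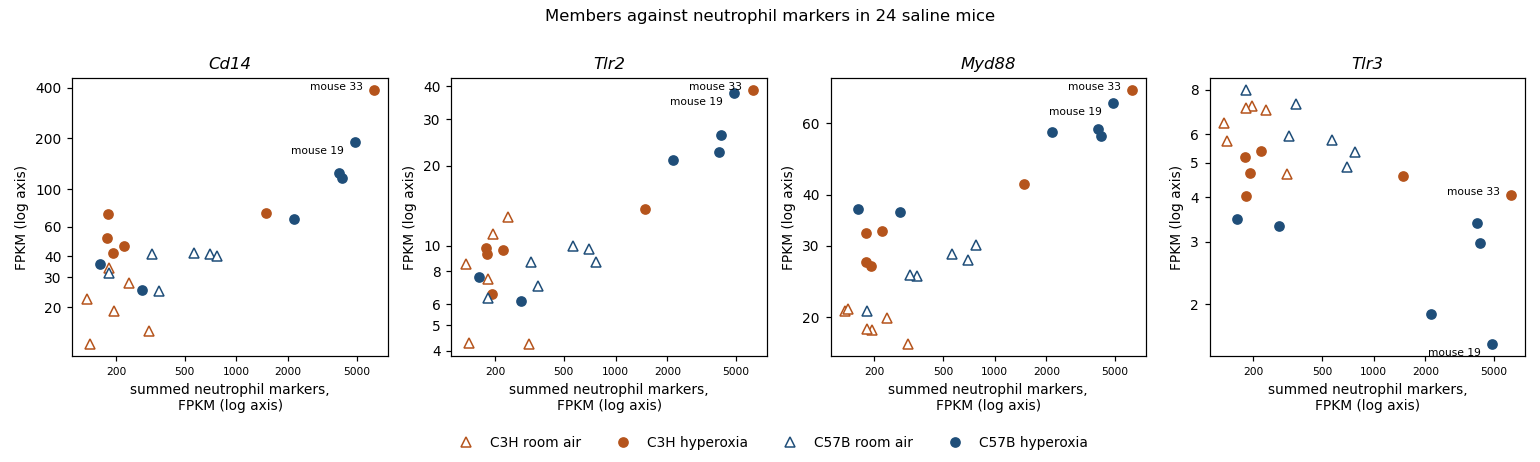
FPKM of Cd14, Tlr2, Myd88 and Tlr3 (vertical log axes) against summed FPKM of 6 neutrophil markers (horizontal log axis) in 24 saline mice, with room air as open triangles and hyperoxia as filled circles, C3H in brown and C57B in blue. The highest sums, 4863 in mouse 19 and 6271 in mouse 33, came with the highest values of Cd14, Tlr2 and Myd88.

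ATG was compared with saline in room air and, separately, in hyperoxia, which share no mice. In room air none of the 10 members was called by limma, 0 had an unadjusted p under 0.05, and 0.0185% of all genes were called. The differences lay between -0.14 (Tlr5, SE 0.12) and 0.13 (Ly96, SE 0.11). In hyperoxia none was called either, against 5.47% of all genes, and Tlr2 had an unadjusted p of 0.0455 in the fit across all genes (-0.51, SE 0.24, adjusted p = 0.217). That difference was -0.18 without mice 19 and 33. The change of the ATG effect with air was called for 0 of 10 members and 2.77% of all genes, with 1 member, Tlr2, at an unadjusted p under 0.05 (-0.62, SE 0.28, adjusted p = 0.215).

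Within strains, the estimates of the ATG effect in hyperoxia had opposite signs for every member other than Tlr2 and Tlr4, and none passed the threshold. Myd88 was among those with opposite signs. Within C3H, 0 of 10 members and 2.65% of all genes were called by limma, and within C57B 0 of 10 and 0.864%, with 1 and 3 members at an unadjusted p under 0.05. In C3H, Myd88 was at 26.8 to 72.2 FPKM with saline (median 32.4) and at 41.8 to 68.4 FPKM with ATG (median 54.9), with a difference of 0.56 (SE 0.17, adjusted p = 0.0804). All 3 C3HM mice given ATG, at 56.3, 64.2 and 68.4 FPKM, lay above the 3 given saline, at 26.8, 27.3 and 32.5 FPKM. The C3HF mice overlapped, at 41.8, 46.9 and 53.5 FPKM with ATG and 32.2, 42.6 and, in mouse 33, 72.2 FPKM with saline. In C57B it was at 36.3 to 67.3 FPKM with saline (median 56.5) and 33.1 to 49.1 FPKM with ATG (median 34.8), with a difference of -0.42 (SE 0.17, adjusted p = 0.187). C57BF mice had 55.9 to 57.9 FPKM with saline and 33.1 to 49.1 FPKM with ATG, without overlap, and C57BM overlapped. The difference between strains was 0.98 (SE 0.24, adjusted p = 0.0842), in a comparison added after the data were seen, in which 0 of 10 members and 0.416% of all genes were called and 3 members had an unadjusted p under 0.05. Myd88 passed there without mice 19 and 33 (0.99, adjusted p = 0.00345).

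For Cd14 and Tlr2 the ranges separated in some groups and overlapped in others. Cd14 in C3HM was at 119, 138 and 168 FPKM with ATG and at 42.1 to 51.6 FPKM with saline, without overlap. In C57BF it was at 28.5, 33.1 and 141 FPKM with ATG, a range that held all saline values, at 66.9 to 125 FPKM. In C3HF it was at 88.7, 88.8 and 210 FPKM with ATG and at 71.8, 72.4 and, in mouse 33, 385 FPKM with saline, and in C57BM at 26.8 to 45.8 and 25.2 to 191 FPKM, both overlapping. The differences were 0.74 (SE 0.48) in C3H and -0.83 (SE 0.48) in C57B, and neither was called. Tlr2 in C57BF was at 7.69 to 14.7 FPKM with ATG and 21.1 to 26.1 FPKM with saline, and its difference was -1.02 in C57B (SE 0.34, adjusted p = 0.123) and -0.01 in C3H (SE 0.34, adjusted p = 0.996). In the same comparison within C3H, 5 of 6 alveolar macrophage markers fell with ATG, from a summed 271 to 700 FPKM to 104 to 464 FPKM, and 0 of 6 neutrophil markers were called in either strain, with 0 in C3H and 5 in C57B at an unadjusted p under 0.05. The part of these cells was not tested.

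**Figure D5:**
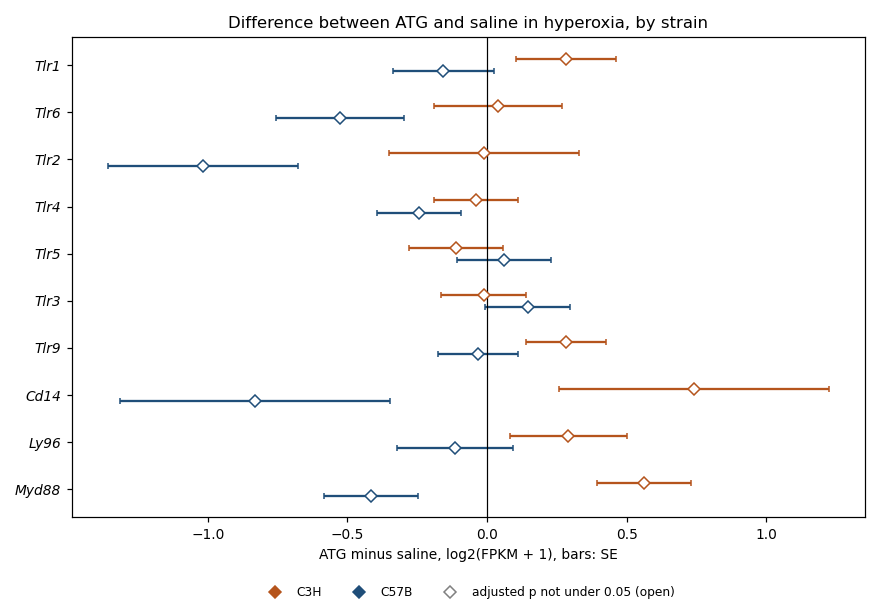
Difference between ATG and saline in hyperoxia (horizontal axis, log2(FPKM + 1), bars are SE) for each transcript in C3H and in C57B, 12 mice each. All symbols are open, as no adjusted p was under 0.05, and Myd88 lay at 0.56 in C3H and -0.42 in C57B.

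Other genes of the pathway were taken from a list of 38 receptors, chaperones, adaptors, kinases and regulators, of which 6 on chromosome X were listed at 0. In hyperoxia 22 of the 30 tested were called, 12 higher and 10 lower, against 60.1% of all genes. The largest changes were those of Irak2, a kinase downstream of Myd88 (1.31, SE 0.10), Tnfaip3, which removes ubiquitin chains and dampens NF-kappaB (1.29, SE 0.20), Hsp90b1, the chaperone of Toll-like receptors (-0.97, SE 0.05), and Tlr12 (-0.87, SE 0.11). By strain in room air 3 of 30 were called, all lower in C3H, a share near the 11.8% of all genes: Ly86 (-0.62, SE 0.13), Cd180 (-0.55, SE 0.15) and Irak4 (-0.41, SE 0.12). Ly86 and Cd180 form a receptor complex of B cells, and the part of lower B cell markers in their difference was not tested. In hyperoxia 9 of 29 differed by strain, 5 higher and 4 lower, a share near the 28.2% of all genes, led by Traf6, the ubiquitin ligase that acts after the Irak kinases (-0.88, SE 0.09), Irak3 (-0.85, SE 0.26), Sigirr, an inhibitory receptor (0.71, SE 0.12), and Irak2 (-0.52, SE 0.11).

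For the change of the hyperoxia effect with strain, 6 of 30 pathway genes were called, against 11.5% of all genes, led by Sigirr (0.80, SE 0.15), Traf6 (-0.75, SE 0.15), Cd36 (0.70, SE 0.22) and Irf3 (0.61, SE 0.17). With ATG in hyperoxia, Traf6 fell by 0.27 (SE 0.06) and Irf3 rose by 0.29 (SE 0.08), the 2 called of 29 tested, against 5.47% of all genes. Irf3, a transcription factor activated after Tlr3 and Tlr4, was also the single pathway gene called for the change of the ATG effect with air (0.47, SE 0.11), against 2.77% of all genes.

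Genes that these receptors induce in macrophages rose in hyperoxia, with 12 of 13 tested called and all 12 higher, against 31.8% of all genes called higher, and a median difference of 2.08 against 0.01 for all genes. They included, as examples chosen after their values were seen, Ccl2 (4.55, SE 0.57), Cxcl1 (4.09, SE 0.66) and Il6 (4.02, SE 0.56), a pair of chemokines and a cytokine. Il1b was the tested gene that was not called. The summed targets were at 100 to 187 FPKM in room air and 182 to 3040 FPKM in hyperoxia, with the highest sums in mice 33 and 19. The part of these receptors in the rise was not tested.

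Over all 48 mice, the genes whose log2 values were most like those of a member were Sdc4, Socs3 and Bcl3 for Myd88 (Pearson r 0.94, 0.94 and 0.93), Plekho2, Ube2d3 and Gnai3 for Tlr4 (0.94, 0.93 and 0.93), and Trem1, Cd44 and Tnfrsf1b for Tlr2 (0.91, 0.89 and 0.88). For Tlr3 they were Clec9a, Fam174b and Fam117a (each 0.91), and for Cd14 they were Inhbb, Ldha and Gpr35 (0.91, 0.90 and 0.89). Clec9a is known as a marker of conventional dendritic cells. For Tlr1 they were Sirpb1c, Rps7 and Sirpb1b (0.86, 0.85 and 0.84), and for Tlr6 they were Hk3, H2-Q10 and Lilra6 (0.79, 0.78 and 0.77). Tlr9 was most like Irf4, Itga4 and Trim30d (0.78, 0.77 and 0.74), Tlr5 like Zkscan8, Kat2b and Plcg1 (0.72, 0.70 and 0.70), and Ly96 like D2Wsu81e and Gm43584 (0.68 and 0.67). The mice share strain, sex, injection and air, so these values describe the pattern over groups.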

How the data were processed

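The lungs of 48 mice in 16 groups of 3 were measured by RNA-seq. The authors deposited FPKM values per gene and mouse in 1 table, made per the labels and methods with GSNAP, SAMtools and Cufflinks on mm10, and use of strand in counting is not given in the sources used here. No counts were used, so read depth is unknown and no counting interval was computed. Columns were assigned to mice and groups by the labels. Akap5 was dropped because it held a failed estimate in some libraries.

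Differences were fitted with limma 3.58.1 on log2(FPKM + 1) over genes with 1 FPKM or more in 3 or more mice, with an intensity trend in the variance and Benjamini-Hochberg adjusted p-values, 2-sided, at 0.05. Groups of strain and sex were weighted equally, and controls are shared between comparisons of hyperoxia and of ATG. The p-values measure the spread between mice of 1 study. The fit was tested on simulated data. The members, the pathway, target and marker lists and the motifs were chosen with earlier results of these data known. Named genes were all members, the pathway genes called with the 4 largest changes of a comparison, and the 3 genes most like each member by Pearson r over 48 mice, of which 1 is not reported here. Promoters and 30-base stretches were read from RefSeq and GENCODE transcripts of mm10. The fits were repeated with a pseudocount of 0.1, with other filters, with quantile or median ratio scaling, without the trend, on all 48 mice, with each mouse left out, and, chosen after seeing the data, mice 19 and 33 left out together. Effects within a strain or a sex were not refitted with mice left out.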

Additional observations from a re-analysis of the deposited data

Results flagged for a closer look

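Dixon's test was applied to 40 sets of 6 saline mice of a strain in 1 air, 1 set for each transcript. In 6 sets a mouse had a gap to the nearest of the others, divided by the range, above the critical value. Chance alone passes that value in about 1 of 20 sets of independent normal values. The sets here hold both sexes and share mice across transcripts, so the count of 6 cannot be set against that rate. Mouse 33 (C3HF in hyperoxia) was the highest of its set for Cd14 (ratio 0.9117, 385 FPKM), Tlr1 (0.8817, 2.01 FPKM), Tlr2 (0.7735, 38.5 FPKM) and Myd88 (0.6513, 72.2 FPKM) and the lowest for Tlr5 (0.6843, 1.24 FPKM). The same mouse had the highest summed neutrophil markers of the saline mice, 6271 FPKM, and the part of these cells was not tested. Mouse 13 (C57BM in room air) was the highest of its set for Tlr6 (0.6834, 1.49 FPKM).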

How the results depend on the processing

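No direction turned under any alternative for the differences called. The count of members called for strain was 3 to 4 in room air and 2 to 4 in hyperoxia over all settings, and for hyperoxia it was 5 to 7, the lowest without mice 19 and 33 together. For hyperoxia by strain the 0 members called became 2 in the fit of 48 mice and 1 without mice 19 and 33, for hyperoxia by sex 2 without these mice, and for ATG in hyperoxia by strain 1 in each of those settings. With 1 mouse left out, the counts were 3 to 4 (strain in room air), 0 to 2 (sex in room air), 0 to 3 (strain by sex), 2 to 4 (strain in hyperoxia), 6 to 7 (hyperoxia), 0 to 2 (hyperoxia by strain), 0 to 2 (hyperoxia by sex), 0 to 1 (ATG in hyperoxia by strain) and 0 for ATG in room air, ATG in hyperoxia, ATG by air and ATG in room air by strain. The highest counts came without mouse 2 for the comparisons of sex in room air and of hyperoxia by strain, and without mouse 19 for hyperoxia by sex, and the 1 call for ATG in hyperoxia by strain came without mouse 33 or mouse 48. The cause was not tested.

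Over all genes, the fit of 48 mice called 2982 genes for strain in room air against 1832, 1915 for sex against 104, 748 for strain by sex against 0, 2994 for hyperoxia by strain against 1880, 306 for hyperoxia by sex against 6 and 234 for ATG in hyperoxia by strain against 66. Sex in room air gave 40 genes with no filter and 60 with a filter at 0.1 FPKM. Without mouse 2 the counts were 4021, 3640, 2741, 3242 and 1270 for the first 5 of these comparisons, and hyperoxia by sex gave 1051 without mouse 19 and 627 without mice 19 and 33. Median ratio scaling moved the share of called genes that were higher from 33.2% to 48.3% (strain in room air), 75.6% to 45.8% (hyperoxia by strain), 71.1% to 41.5% (ATG in hyperoxia) and 56.4% to 32.9% (ATG by air). The median of all genes was shifted by -0.10 for strain, -0.12 for sex and -0.15 for strain by sex in room air, and by 0.15 and 0.14 for hyperoxia by strain and by sex. No paired analysis was possible because each mouse has its own number. Depth is unknown, and members under 1 FPKM, such as Tlr1 and Tlr9, are the least certain.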
